A study of Mus musculus with 3 samples.

Results

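Skeletal muscle contractile genes were followed in the midbrain of newborn mice: Myh1, Myh2, Myh3, Myh8, Acta1, Actc1, Tnnt3, Ttn, Ckm and Mylpf. These 10 were taken by gene symbol from the 49585 genes of the deposited tables, and each of the 10 symbols had 1 row. The list was chosen by the fold change of Myh8 between FGR and WT, which was among the largest rises, and by textbook membership for the rest, and the question was whether Myh8 moved with other muscle genes or alone. The FGR-to-WT difference of Myh8 is therefore given as a description, with no test. The samples were 2 midbrain RNA-seq libraries from C57BL/6 mice labelled FGR, a genotype label whose letters, allele and agent are not explained in the labels, and 1 library from wild-type (WT) C57BL/6 mice. All were from postnatal day 3, and the labels do not say how many animals, litters or dissections the libraries stand for. The single WT library gives no measure of spread among WT samples, and any peculiarity of that library cannot be told apart from the group.

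Skeletal muscle contracts when the heads of thick-filament myosin pull on thin filaments of actin. Each myosin molecule carries a pair of heavy chains, and mammals encode several sarcomeric heavy chains that replace one another during development: the embryonic chain Myh3 and the perinatal chain Myh8 come first, and the adult fast chains Myh1, Myh2 and Myh4 follow. Troponin, tropomyosin and calcium switch the thin filament on, titin (Ttn) spans the half-sarcomere as a spring, and muscle creatine kinase (Ckm) supplies the ATP. None of these genes is a standard marker of midbrain cells, although Myh8 mRNA has also been used to name a subset of somatostatin interneurons in mouse cortex.

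Total counts were 58444481 and 46240262 in the FGR libraries and 52874311 in WT. Levels are given as CPM, the counts relative to library size, scaled by the trimmed mean of M-values (TMM), and fold changes and calls come from edgeR's quasi-likelihood test over 25561 genes with a Benjamini-Hochberg threshold of 0.05. The 5 general neuronal genes checked were abundant in every library, the lowest of them, Rbfox3, at 29.0 and 28.5 CPM in FGR and 33.2 CPM in WT. The 10 muscle genes together had 2538 and 1932 counts in the FGR libraries and 2629 in WT, of which Ttn alone gave 77.5% and 74.3% in FGR and 79.8% in WT.

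Myh8 (ENSMUSG00000055775.16), the perinatal heavy chain, was higher in both FGR libraries, while 6 of the other 9 genes were lower in both. Among all tested genes 38.5% lay above WT in both FGR libraries and 38.2% below it, so groups of this size often separate. Myh8 had 180 and 140 counts in the FGR libraries and 61 in WT. This came to 3.10 and 3.06 CPM in FGR, or 3.08 ± 0.0287 CPM (SD, n = 2), and 1.13 CPM in WT, so the FGR libraries were nearly equal and both lay above WT. The fitted log2 fold change was 1.44 ± 0.24 (SE), or 2.72-fold. Of the 25561 genes tested, 242 including Myh8 had a log2 fold change at least as large. Of the 4529 whose mean CPM lay within 2-fold of that of Myh8, 10 did, Myh8 included. Myh8 was chosen as among the largest rises, so a high place follows from that choice. Against WT, the ratio of scaled counts was 2.74 in FGR replicate 1 (exact 95% binomial interval 2.04 to 3.72) and 2.70 in FGR replicate 2 (1.99 to 3.71). Intervals here and below cover counting error only. Of the other 9 genes 8 were tested and edgeR called 0 (1 at an unadjusted p under 0.05), beside 4.25% of all tested genes called in either direction, 1.66% higher and 2.59% lower. DESeq2 gave an adjusted p for Acta1 and Ttn alone among them and called neither.

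**Figure D1:**
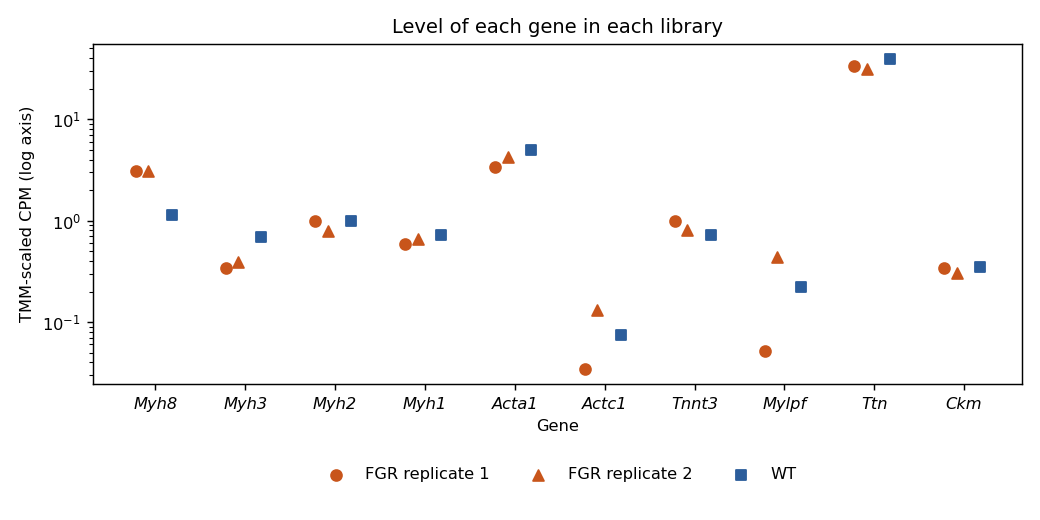
Levels of the 10 genes in TMM-scaled CPM (log axis) in each library; circles and triangles are the FGR libraries, squares the WT library. Myh8 lies at 3.10 and 3.06 CPM in FGR and 1.13 CPM in WT, whereas Ttn, Acta1, Myh1, Myh2, Myh3 and Ckm have both FGR libraries below WT.

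Myh8 sits in a cluster of sarcomeric heavy chain genes. In GENCODE M21 (GRCm38) it spans chr11:67277124-67308634 on the plus strand, with 40 exons in its coding transcript. In the same orientation the cluster runs Myh3, Myh2, Myh1, Myh4, Myh8 and Myh13, so Myh8 lies between Myh4, which starts at 67238029, and Myh13, which starts at 67321658. Myh4, the fastest adult chain, had 29 and 32 counts in FGR and 29 in WT. Myh13, a chain of extraocular muscle, had 8 and 8 counts in FGR and 17 in WT. Neither neighbour was called (edgeR adjusted p = 0.915 for Myh4 and 0.531 for Myh13), and for Myh13 both FGR libraries lay below WT.

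The promoters of Myh8, Myh1 and Myh3 are shown because these chains lie in 1 cluster and had different values in FGR. Each is the run of 250 bases before the RefSeq start (GRCm38.p6, plus strand), at chr11:67276874-67277123 for Myh8, chr11:67199852-67200101 for Myh1 and chr11:67078050-67078299 for Myh3. Capitals mark matches, on either strand, to the E-box CANNTG, the MCAT element CATTCC, the TATA box TATAAA, the MEF2 element or the CArG box.
Myh8: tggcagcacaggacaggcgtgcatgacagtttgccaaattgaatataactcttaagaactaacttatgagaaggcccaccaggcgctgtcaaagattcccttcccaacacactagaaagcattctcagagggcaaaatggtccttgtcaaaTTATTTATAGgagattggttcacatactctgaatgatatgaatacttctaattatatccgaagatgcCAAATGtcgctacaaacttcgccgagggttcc
Myh1: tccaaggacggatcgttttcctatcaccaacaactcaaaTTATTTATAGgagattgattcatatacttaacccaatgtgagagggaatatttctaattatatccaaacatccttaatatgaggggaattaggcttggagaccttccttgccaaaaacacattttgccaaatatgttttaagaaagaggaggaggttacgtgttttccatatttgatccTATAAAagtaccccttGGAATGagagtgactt
Myh3: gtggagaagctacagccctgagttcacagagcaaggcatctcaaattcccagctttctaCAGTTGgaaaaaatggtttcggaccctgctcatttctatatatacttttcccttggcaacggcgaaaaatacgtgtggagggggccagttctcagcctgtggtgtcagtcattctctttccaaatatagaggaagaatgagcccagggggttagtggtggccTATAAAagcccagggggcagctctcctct

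The same 10 letters, TTATTTATAG, matched the MEF2 element in Myh8, where they began 99 bases before the start, in Myh1, at 211 bases, and in Myh4, at 182 bases. In each the match held TATAAA on the minus strand. A MEF2 match was found in 2.92% of the 32851 RefSeq promoter windows of this length, and an E-box in 66.2%. Myh8 had 1 E-box, CAAATG, 32 bases before the start, and Myh3 had 1, CAGTTG, at 191 bases. A TATAAA on the plus strand stood 32 bases before the start of Myh1 and 29 bases before that of Myh3, and none matched on that strand of Myh8. Windows were found for 9 of the 10 genes, all but Tnnt3. Of these, 6 held an E-box, 3 a MEF2 match, 4 a TATA box, 2 an MCAT element and 2 a CArG box, against 66.2%, 2.92%, 12.4%, 12.6% and 1.47% of all windows. A match is a run of letters and not evidence of binding.

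Of the heavy chains Myh3, Myh2 and Myh1, none was called by edgeR, and all lay below their WT level in both FGR libraries. Myh3, the embryonic chain (ENSMUSG00000020908.14; chr11:67078300-67102291), had 20 and 18 counts in FGR and 37 in WT. Both FGR libraries were below WT, at 0.345 and 0.394 CPM against 0.687 CPM, and the log2 fold change was -0.90 ± 0.48 (SE; edgeR adjusted p = 0.343). Relative to WT its scaled counts were 0.502 in FGR replicate 1 (interval 0.276 to 0.887) and 0.573 in FGR replicate 2 (0.307 to 1.03). Myh2, the chain of fast oxidative fibres, had 57 and 36 counts in FGR and 54 in WT, or 0.983 and 0.788 CPM in FGR and 1.00 CPM in WT. Myh1, a fast chain of adult muscle, had 34 and 30 counts in FGR and 39 in WT, or 0.586 and 0.656 CPM in FGR and 0.725 CPM in WT. For both genes the FGR libraries lay just below WT, and the log2 fold changes of -0.17 ± 0.35 (Myh2) and -0.23 ± 0.41 (Myh1) were smaller than their standard errors. Myh1 and Myh2 each overlap an antisense transcript in exons, with 9 and 7 counts in FGR and 6 in WT for Myhas at Myh1, and 1 and 0 counts in FGR and 7 in WT for 9430073C21Rik at Myh2.

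Within a library, the balance of the heavy chains needs no scaling between libraries. Myh8 gave 61.9% of the counts of Myh8, Myh1, Myh2 and Myh3 in FGR replicate 1 (exact 95% binomial interval 56.0 to 67.5) and 62.5% in FGR replicate 2 (55.8 to 68.9), against 31.9% in WT (25.4 to 39.1). These shares rest on the Myh8 counts by which the list was chosen, and they are a description. Myh3 gave 6.87% and 8.04% in FGR and 19.4% in WT. The shares of a library add to 100%, so a higher share of Myh8 leaves less for the others. Per 100 counts of the other 9 genes, Myh8 had 7.63 and 7.81 counts in the FGR libraries (intervals 6.52 to 8.89 and 6.53 to 9.28) and 2.38 in WT (1.81 to 3.06), a ratio of 3.25 between the FGR mean and WT. The ratio was 3.28 without Ttn, which held most of the counts. With 2 libraries against 1, an exact permutation test of such a share cannot give a p below 0.333, so none is given.

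**Figure D2:**
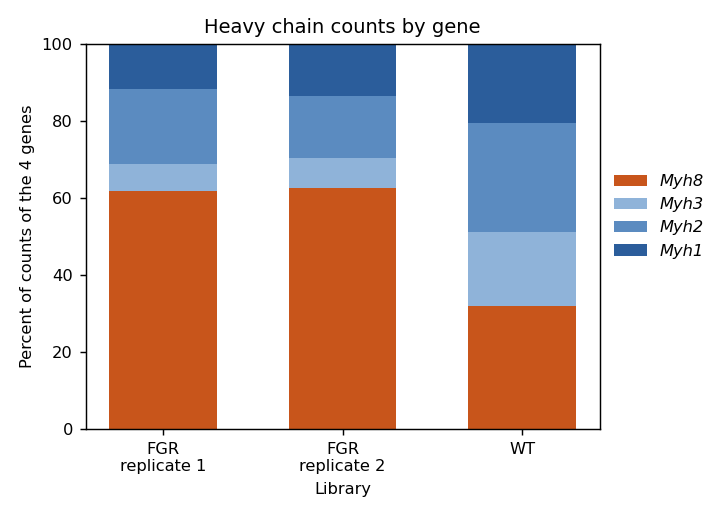
Percent of the summed raw counts of 4 myosin heavy chain genes that each gene gave, per library (bars add to 100 percent, no error shown). Myh8 makes up 61.9% and 62.5% in the FGR libraries and 31.9% in WT.

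The heavy chains are close copies, which bears on how their reads can be told apart. The coding sequence of Myh8 was identical to that of Myh1 at 89.3% of aligned bases, to Myh2 at 89.3%, to Myh4 at 87.9%, to Myh3 at 80.9% and to Myh13 at 79.8%. Of the 6100 words of 50 bases in the coding transcript of Myh8, 21.4% occurred unchanged in a transcript of another gene, most often Myh2, and of words of 100 bases 6.61% did. For Myh1 the share of 50-base words was 26.7%, for Myh2 26.9% and for Myh3 4.81%. It was 2.22% for Acta1 and 0 for Actc1, Tnnt3, Ttn, Ckm and Mylpf. Neither read length nor the treatment of reads with several matches is stated in the labels. Counts of Myh1, Myh2, Myh3, Myh4, Myh8 and Myh13 are therefore uncertain where reads fall in shared stretches. The other 3 closest copies, Myh1, Myh2 and Myh4, did not pass the test in either direction. Their counts, 29 to 57 per library, are few. This result therefore says nothing about how shared reads were assigned, which was not tested.

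The stretches shown hold the longest runs of identical bases in the coding sequences of Myh8 and Myh1, a close copy, and of Myh8 and Myh3, a more distant one, since a read inside such a run matches both genes. The first pair of lines is part of exons 23 and 24 of Myh8 (bases 2804 to 2979 of its coding sequence, from chr11:67297207 to 67297493 in GRCm38 with an intron between) and its counterpart in Myh1, which hold a run of 160 identical bases. The second pair is from exon 30 of Myh8 (bases 4046 to 4138, chr11:67300019-67300111) and Myh3, with a longest identical run of 77 bases. A longer run, of 213 bases, is shared with Myh13 and not shown, although Myh13 had the lowest identity with Myh8, 79.8%. Capitals mark bases that differ within each pair.
Myh8, exons 23 and 24: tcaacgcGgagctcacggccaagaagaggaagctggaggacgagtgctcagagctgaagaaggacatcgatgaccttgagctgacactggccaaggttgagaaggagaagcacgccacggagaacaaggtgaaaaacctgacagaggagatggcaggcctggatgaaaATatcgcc
Myh1, same stretch: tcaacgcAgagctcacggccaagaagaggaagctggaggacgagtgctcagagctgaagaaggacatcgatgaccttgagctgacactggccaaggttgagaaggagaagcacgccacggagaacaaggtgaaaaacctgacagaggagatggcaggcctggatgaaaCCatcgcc
Myh8, exon 30: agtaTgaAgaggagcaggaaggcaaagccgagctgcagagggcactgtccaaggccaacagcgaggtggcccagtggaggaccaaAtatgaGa
Myh3, same stretch: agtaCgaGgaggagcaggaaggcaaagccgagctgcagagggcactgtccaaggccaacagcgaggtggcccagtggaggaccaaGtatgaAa

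**Figure D3:**
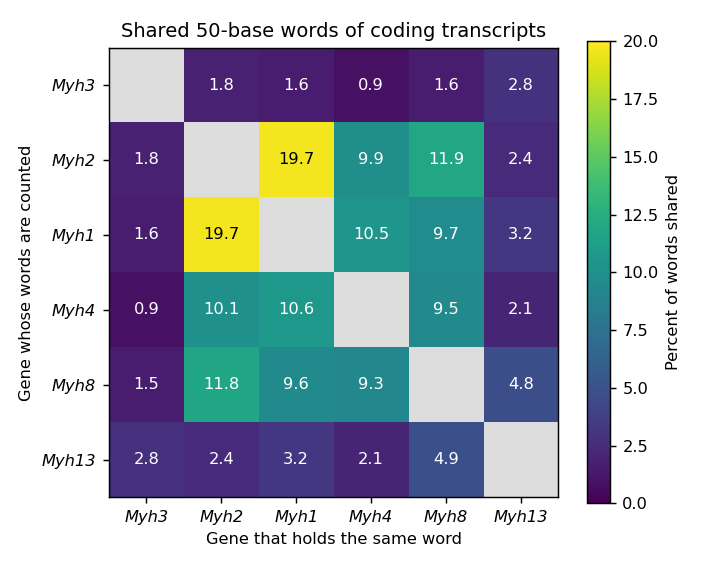
Percent of the 50-base words of each gene's coding transcript (rows) that occur unchanged in a transcript of another gene of the cluster (columns), in GENCODE M21. Myh8 shares 11.8% with Myh2 and 1.54% with Myh3; Myh1 and Myh2 share 19.7% with each other.

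The actins of striated muscle form the core of its thin filaments. Acta1, the skeletal alpha-actin gene, had 198 and 196 counts in FGR and 266 in WT. It stood at 3.41 and 4.29 CPM in FGR and 4.94 CPM in WT, both FGR libraries below WT, with a log2 fold change of -0.36 ± 0.19 (edgeR adjusted p = 0.329). Actc1, the cardiac alpha-actin gene that developing skeletal muscle also uses, had 2 and 6 counts in FGR and 4 in WT, too few to be tested, and the groups overlapped. A difference in Actc1 was not detectable at this depth.

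The troponin and light chain genes gave no common direction. Tnnt3, the fast skeletal troponin T that anchors troponin to tropomyosin, had 57 and 37 counts in FGR and 39 in WT. At 0.983 and 0.809 CPM in FGR and 0.725 CPM in WT it was the only one of the other 9 genes with both FGR libraries above WT, and its log2 fold change of 0.31 ± 0.37 was smaller than its standard error. Mylpf, the fast phosphorylatable light chain, had 3 and 20 counts in FGR and 12 in WT. The FGR libraries lay on either side of WT, and FGR replicate 1 was at 0.118 of FGR replicate 2 (interval 0.0225 to 0.399), the widest gap between the FGR libraries among the 10 genes. The fitted log2 fold change of Mylpf was 0.06 ± 0.97, and it was -2.06 without FGR replicate 2, so no direction can be given.

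Titin and creatine kinase stand for the elastic filament and the energy supply. Ttn had 1967 and 1435 counts in FGR and 2098 in WT. Its level was 33.9 and 31.4 CPM in FGR and 39.0 CPM in WT, both FGR libraries below WT, with a log2 fold change of -0.25 ± 0.09 that was not called (edgeR unadjusted p = 0.0125, adjusted p = 0.133). Ckm had 20 and 14 counts in FGR and 19 in WT, or 0.345 and 0.306 CPM in FGR and 0.353 CPM in WT (log2 fold change -0.11 ± 0.60). Ckm shares 451 exonic bases with the antisense transcript A930016O22Rik, which had 14 and 14 counts in FGR and 14 in WT, and strand use is not stated, so reads of the overlap cannot be told apart.

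Over the 8 of the other 9 genes that could be tested, the median log2 fold change was -0.20, beside 0.01 over all genes tested. Both FGR libraries lay below WT for 6 of the 9, above it for 1 and on either side for 2. A log2 fold change of 1.44 lay outside the range of the other 8 tested genes, which ran from -0.90 (Myh3) to 0.31 (Tnnt3). That Myh8 differs from the other genes in its change was not tested, because it was chosen for that change.

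**Figure D4:**
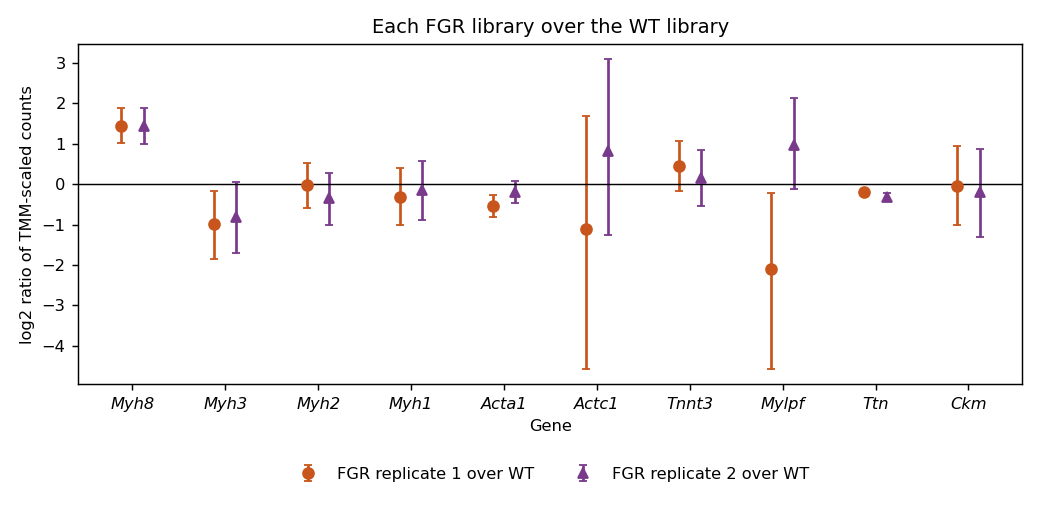
log2 ratio of TMM-scaled counts of each FGR library to the WT library for the 10 genes; bars are exact 95% binomial intervals (counting error only) and the line at 0 marks equality. Both Myh8 ratios, 1.45 and 1.43 on the log2 scale, lie above 0, while the intervals of Actc1 and Mylpf are wide because their counts are few.

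Levels of different genes were compared per length, as RPKM, counts relative to gene length and library total, with the deposited gene lengths. Acta1 was the most abundant, at 2.21 and 2.76 RPKM in FGR and 3.28 RPKM in WT, near the middle of all tested genes (46.0 and 50.1 percentile in FGR, 53.2 percentile in WT). Tnnt3 followed at 0.616 and 0.505 RPKM in FGR and 0.466 RPKM in WT, then Ttn at 0.288 and 0.266 RPKM in FGR and 0.340 RPKM in WT. No other gene exceeded 0.407 RPKM, the level of Mylpf in FGR replicate 2. Myh8 was at 0.262 and 0.257 RPKM in FGR and 0.0980 RPKM in WT, which is the 13.9 and 12.7 percentile in FGR and the 3.92 percentile in WT. With these lengths Myh8 was the fourth of the 10 genes by the mean of the FGR libraries and the ninth by WT, and with the lengths of the coding transcripts it was the third in FGR and the fifth in WT. In FGR its counting intervals (0.225 to 0.303 and 0.216 to 0.303 RPKM) overlapped those of Ttn. In WT its interval (0.0750 to 0.126 RPKM) overlapped those of Myh1, Myh2, Myh3, Ckm, Mylpf and Actc1. The deposited length of Myh8, 11772 bases, is the union of all its annotated exons in GENCODE M21 and is 5623 bases longer than its coding transcript of 6149 bases. Per length of that transcript, Myh8 came to 0.501 and 0.492 RPKM in FGR and 0.188 RPKM in WT. Which part of the model the reads came from is not recorded in the counts.

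Wider lists of skeletal muscle genes were read beside Myh8. From 3 lists of 75 further genes, 73 were in the tables and 54 could be tested, of which 0 were called higher and 1 lower by edgeR, beside 1.66% and 2.59% of all tested genes. At an unadjusted p under 0.05 were 8 of the 54, beside 18.3% of all tested genes. With shares this low over all genes, so few calls say nothing particular about these lists. Their median log2 fold change was -0.13. Of 36 further sarcomere genes, 26 were tested, edgeR called 0 (5 at an unadjusted p under 0.05), and the median was -0.15. Mybph, a myosin-binding protein and the most abundant of them, was at 13.7 and 13.4 CPM in FGR and 12.8 CPM in WT. Of 24 genes of excitation and energy supply, 21 were tested and Jph2, which ties the sarcoplasmic reticulum to the surface membrane, was the 1 that fell. Jph2 was at 1.72 and 1.14 CPM in FGR and 3.20 CPM in WT, a log2 fold change of -1.14 ± 0.26 (edgeR adjusted p = 0.0227, DESeq2 adjusted p = 0.333). Srl, the reticulum protein sarcalumenin and the most abundant of that list, was at 28.2 and 26.1 CPM in FGR and 24.6 CPM in WT. Of 15 genes of myogenesis and the end plate, 13 were in the tables and 7 were tested, with 0 called by edgeR (0 at an unadjusted p under 0.05) and a median of 0.17. The most abundant, Pax7, which marks muscle satellite cells and also the dorsal midbrain, was at 29.2 and 22.6 CPM in FGR and 23.1 CPM in WT.

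Several genes that define skeletal muscle were at or near 0 in these libraries. The following were picked after their values were seen. The master regulator Myod1 had 2 and 0 counts in FGR and 1 in WT. Myog, which drives terminal differentiation, had 3 and 3 counts in FGR and 3 in WT. The fast troponin C gene Tnnc2 had 6 and 5 counts in FGR and 3 in WT, the fast light chain gene Myl1 11 and 7 counts in FGR and 4 in WT, and the Z-disc gene Tcap 0 and 4 counts in FGR and 4 in WT. Each of these had fewer counts than Myh8 in the same library, but all are shorter genes, and counts of genes of unlike length are not levels. Per deposited length they also lay below Myh8, some less far. In WT, Tnnc2 was at 0.0709 RPKM and Tcap at 0.0798 RPKM, beside Myh8 at 0.0980 RPKM. In FGR, Tnnc2 was at 0.128 and 0.135 RPKM, beside Myh8 at 0.262 and 0.257 RPKM. Others of the same lists stood above Myh8 in counts: Myh7 had 345 and 234 counts in FGR and 332 in WT. Ryr1 had 1312 and 973 counts in FGR and 1219 in WT, and Dok7 828 and 663 in FGR and 678 in WT. Among genes with too few counts to be tested, Myl1, Myl3 and Tnnc2 had both FGR libraries above WT, the side of Myh8. Tnni1, Cav3 and Vgll2 had both below. The summed CPM of the 3 lists was 53.6 and 54.5 in FGR and 57.2 in WT for sarcomere genes, 78.8 and 79.5 in FGR and 81.6 in WT for excitation and energy, and 47.3 and 41.4 in FGR and 39.9 in WT for myogenesis and the end plate, where Pax7 dominated. In bulk tissue, fewer cells of a type and less RNA per cell cannot be told apart.

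**Figure D5:**
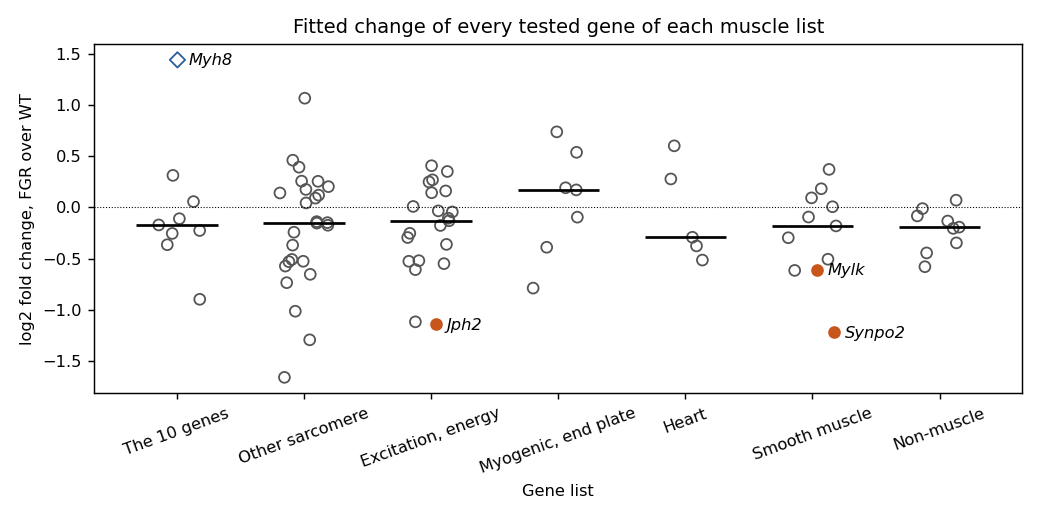
Fitted log2 fold change, FGR over WT, of every tested gene in 7 lists; filled points with names were called by edgeR, open circles were not, horizontal lines are list medians, and the diamond is Myh8, for which no call is given. Myh8 at 1.44 is above every other gene plotted; Jph2, Mylk and Synpo2 were called lower.

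Contractile genes of heart, smooth muscle and non-muscle cells were read beside these. Of 9 heart genes 5 were tested and edgeR called 0 (0 at an unadjusted p under 0.05), and the cardiac factor genes Nkx2-5 and Gata4 had 0 counts in every library. Nppa, a natriuretic peptide gene and the most abundant, was at 1.47 and 1.42 CPM in FGR and 1.88 CPM in WT. Of 11 smooth muscle genes, all tested, Mylk and Synpo2 fell, beside 2.59% of all tested genes. At an edgeR unadjusted p under 0.05 were 4, all lower in FGR, beside 18.3% of all tested genes. Mylk, the kinase of the regulatory light chain, was at 7.64 and 7.15 CPM in FGR and 11.3 CPM in WT (edgeR adjusted p = 0.0274), and Synpo2, an actin-bundling protein, at 2.04 ± 0.0554 CPM in FGR (SD, n = 2) and 4.76 CPM in WT (edgeR adjusted p = 0.00294). DESeq2 called neither (adjusted p = 0.243 for Mylk and 0.0852 for Synpo2). The smooth muscle heavy chain Myh11 was at 1.17 and 1.36 CPM in FGR and 1.93 CPM in WT and was not called (edgeR adjusted p = 0.239). Of the 9 non-muscle cytoskeletal genes edgeR called 0 (5 at an unadjusted p under 0.05, beside 18.3% of all tested genes). These 5, Myh9, Myh14, Myl6, Myl9 and Myl12a, had both FGR libraries below WT. Actb, the most abundant, was above WT in both, at 2199 and 2276 CPM in FGR and 2131 CPM in WT. The non-muscle heavy chain Myh10 was at 278.5 and 267.9 CPM in FGR and 299.7 CPM in WT.

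Genes of noradrenergic neurons, hindbrain and meninges differed in the same comparison. These lists were chosen with earlier results of these data known, so their counts of called genes are a description. Of 9 genes of noradrenergic neurons and hindbrain, 6 of the 8 tested rose and none fell, beside 1.66% and 2.59% of all tested genes, and their summed level was 45.3 and 38.7 CPM in FGR and 4.01 CPM in WT. Of these, Slc6a2, the noradrenaline transporter gene, made up most, at 32.7 and 25.7 CPM in FGR and 2.55 CPM in WT. Hoxa3 was not tested, with 5 and 3 counts in FGR and 0 in WT. Of 8 genes of the meninges edgeR called 7 lower, beside 2.59% of all tested genes, and their summed level was 356.8 and 581.2 CPM in FGR and 911.4 CPM in WT. The part of either in the Myh8 difference was not tested.

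Among 14492 named genes whose mean level reached 1 CPM, those whose pattern over the 3 libraries was most like that of Myh8 were Lamp5, Stra6l, Ndst4, Cnga2 and Cpeb1os1, by Euclidean distance of centred log2 CPM. The distances were 0.08, 0.08, 0.12, 0.17 and 0.17. Lamp5, a membrane protein gene of neurons, was at 4.34 and 4.20 CPM in FGR and 1.69 CPM in WT. Cnga2, a subunit gene of the cyclic nucleotide-gated channel of olfactory neurons, was at 1.36 and 1.44 CPM in FGR and 0.576 CPM in WT. With 3 libraries this likeness says little more than that each was about as much higher in both FGR libraries. Among the other 9 genes Tnnt3 was the nearest, at 0.93, and 1010 of these 14492 genes were closer to Myh8 than that. Distances were not computed for the wider muscle lists, so a nearer muscle gene may be among them. Myh1 was at 1.33 and Acta1 at 1.47, and Mylpf was the farthest, at 2.28.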

How the data were processed

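Total RNA was sequenced from frozen midbrain taken up in Trizol, with TruSeq libraries, per the labels' protocols. The authors deposited for each library a raw read count, a length and an RPKM value for each of 49585 genes. Per the submitters' processing notes, HISAT2 was used. Its version, the genome build, the counter and strand use: not given in the sources used here. The deposited RPKM equalled the value computed from the other columns to within 0.000498 percent where it exceeded 0.01. Of the identifiers, 49326 were in GENCODE M21 (version dropped), of which 89.9% had the deposited length, as did all 10 genes; coordinates are those of M21, and promoters those of RefSeq (GRCm38.p6). Exonic antisense overlaps (Myh1, Myh2, Ttn, Ckm) had partners with at most 14 counts.

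Counts were fitted in R 4.3.3 with edgeR 4.0.16 (filterByExpr with minimum count 10, TMM, two-sided quasi-likelihood test) on the whole table. The 1 residual degree of freedom came from the FGR pair, so WT was assumed to vary like FGR; nothing says the FGR libraries came from separate animals, and p-values reflect the spread between these samples alone, which may be technical. Standard errors are the absolute log2 fold change over the square root of F. Members and lists were chosen with earlier results of these data known. Named were all members, the heavy chain cluster, called and most abundant list genes, the 5 genes nearest to Myh8, and others chosen after their values were seen. The test was tried on simulated data. DESeq2 1.42.0, limma 3.58.1 and other scalings and filters were alternatives. Biopython 1.88 aligned coding sequences.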

Additional observations from a re-analysis of the deposited data

How the results depend on the processing

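The log2 fold change of Myh8 was 1.44, 1.40 with scaling by library totals, 1.43 with no filter beyond 1 count, and 1.42 to 1.45 when either FGR library was left out, which leaves 1 library against 1 and no test. The number of the 10 genes past the threshold was 0 in DESeq2 (1 at an unadjusted p under 0.05), and 1 in edgeR and in the other 7 alternatives with a test. Of these 7, the sum of all rows of a symbol repeats the main fit, because each symbol had 1 row. The 1 gene past the threshold was Myh8, whose value chose the list, so the count supports nothing. The median of the other genes was -0.20, -0.24 with library totals, -0.24 in limma-voom, -0.32 at a mean CPM of at least 1, where 2 of them were left, and -0.25 to -0.21 with either FGR library left out. The ratio of Myh8 per count of the other genes was 3.50 against Myh1, Myh2 and Myh3 only, and 3.21 to 3.29 with either FGR library left out. Mylpf, with 3 and 20 counts in FGR and 12 in WT, changed sign in limma-voom (-0.64). It ranged from -2.06 to 0.96 with either FGR library left out, and was negative without FGR replicate 2, which leaves 3 counts against 12. Why the FGR libraries differed was not tested. Jph2 and Mylk were not called at a mean CPM of at least 1 (adjusted p = 0.0994 and 0.0722). With all genes, 2057 were called with no filter, 301 at a mean CPM of at least 1 and 357 by DESeq2, against 1087. The length of the Myh8 coding transcript in place of the deposited one, chosen after seeing the data, moved its mean FGR level to 0.497 RPKM from 0.259 RPKM and, with such lengths for all 10 genes, its place to the third in FGR and the fifth in WT. No paired analysis was possible because the groups share fewer than 2 replicate numbers. Genes with 20 counts or fewer in each FGR library (Actc1, Mylpf, Ckm, Myh3) have wide counting intervals.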
